A study of Mus musculus with 12 samples.

Results

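Axon guidance genes encode the ligands and receptors by which growing axons choose their path: semaphorins and their plexin receptors, Slits and Robo receptors, netrins and Unc5 receptors, the netrin-G proteins, and ephrins with their Eph receptors. Members were taken by gene symbol from these families, with at least 0.5 RPKM (read density scaled for transcript length and library depth) in any genotype. Of 23951 genes listed, 68 carried such a symbol and 66 reached that level. The other two, Epha1 and Ntn5, stood highest at 0.140 and 0.339 RPKM, and the lowest members, Epha2 and Sema3g, at 1.15 and 1.2 RPKM. The members fall into 11 families of ligands and receptors.

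RNA came from dissected cortex of C57BL/6 mice that were miR-137 KO (KO, 4 libraries), miR-137/+ (Het, 4 libraries) or wild type (WT, 4 libraries) at Mir137, the gene of a brain-enriched microRNA. The study set out to learn the part of miR-137 in neurodevelopment. Age, sex, the design of the deleted allele and the number of animals per library are not given in the labels. Each genotype is represented by the authors' pooled RPKM value in each of 3 pairwise tables, so no SD can be given, the depth is unknown, and whether single libraries overlap cannot be seen. The protocol speaks of duplicated samples per condition, and the titles number the libraries of each genotype in pairs whose meaning is not given. Nothing says that the 4 libraries came from separate animals, so the authors' p-values may measure technical spread only. The words "rose", "fell" and "called" are used for genes that the authors' deposited tables give an adjusted p below 0.05, and "fold" is the ratio of RPKM. A called member printed with no p had the smallest adjusted p that the authors' deposited tables hold, which was 0.00135 for Het against WT, 0.000987 for KO against WT and 0.00517 for KO against Het.

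Guidance ligands either attract or repel a growth cone, the motile tip of an axon, and the same ligand can do both depending on the receptors the cone carries. In the developing cortex they steer callosal, corticofugal and thalamocortical axons, and in the mature brain many of them act at synapses. Many receptors of these families signal through small GTPases to the actin cytoskeleton. In bulk tissue, fewer cells of a type and less RNA per cell cannot be told apart.

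Mir137 itself was listed at 0 RPKM in all 3 genotypes, a row that checks no genotype label because its hairpin is too short for a library of this kind. A microRNA pairs through its seed, bases 2 to 8, with complementary letters in the 3' untranslated region (3' UTR) of a messenger RNA. The mature sequence of mouse miR-137, from RefSeq on GRCm38.p6 (chr3:118433901-118433923, plus strand), is shown with its seed in capitals.
miR-137-3p: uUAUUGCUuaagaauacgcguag
The longest annotated 3' UTR of every member was searched, on the transcribed strand, for AGCAATAA (8mer), for AGCAATA without the final A (7mer-m8, pairing with bases 2 to 8) and for GCAATAA without the leading A (7mer-A1). These words overlap, and each place was counted once under its longest match. Among the 66 members 20 held a match (30.3%), against 15.8% of 13341 genes of at least 0.5 RPKM, and the median 3' UTR was 1678.5 bases in members and 1201 bases in all those genes. An 8mer was present in 3 members, or 4.55%, against 4.58% of all those genes. Using the shortest annotated 3' UTR, 10 of the 66 members held a match, or 15.2%, against 9.22% of all those genes.

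The matches printed here are those of the members called between KO and Het, every 8mer, and that of Sema3a, which had the highest ratio of Het to WT; each is given as 23 bases of 3' UTR, 5' to 3', with the match in capitals.
Epha7 proximal: aaaaaaaaaaaagaaAGCAATAA
Epha7 middle: tgtttgaatttcataAGCAATAA
Epha7 distal: aataactttttccttcAGCAATA
Epha8 first: tcagggtagcccccagAGCAATA
Epha8 second: gagccccctcccttctGCAATAA
Robo2 8mer: gtcataattaaagacAGCAATAA
Efna3: cctccccctgtttacAGCAATAA
Ntng1: agccaattcaaagaagGCAATAA
Sema5a: tcagaaagacaaaagcAGCAATA
Sema3a: tttagcactaagaaatAGCAATA
All lie in 3' UTR exons of GENCODE M21 on GRCm38. The Epha7 places are chr4:28964765-28964787, chr4:28965372-28965394 and chr4:28966472-28966494 on the plus strand, and those of Epha8 are chr4:136930965-136930987 and chr4:136929706-136929728 on the minus strand. Robo2 has its 8mer at chr16:73891861-73891883 (minus strand), Efna3 at chr3:89314977-89314999 (minus strand), and Ntng1 its match at chr3:109780664-109780686 (minus strand). The matches of Sema5a at chr15:32694359-32694381 and of Sema3a at chr5:13601728-13601750 are on the plus strand. In Ntng1 and Robo2 the final letters of the match are also part of AATAAA, the letters of a polyadenylation signal. This is the case for 4 of the 25 matches in members. The Robo2 8mer ends 22 bases before the end of the 3' UTR and the Ntng1 match 624 bases before it. Whether these letters serve as a signal was not tested. A match is a description of the letters and not a site at which miR-137 was seen to act.

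Many of the guidance genes differed between genotypes, in both directions. In Het cortex 14 of the 66 members rose and 13 fell (40.9% called), where 9.00% of all genes tested were called, 3.95% higher and 5.06% lower. In KO cortex 9 rose and 13 fell against WT (33.3% called), where 14.4% of all genes tested were called, 6.72% higher and 7.68% lower. Between KO and Het 2 members were higher and 3 lower in KO (7.58% called), where the background was 1.87%, with 0.917% higher and 0.953% lower. At 5 RPKM or more, the counts were 21, 18 and 5 of 47 members, and the background was 8.95%, 15.4% and 2.13% of genes at that level.

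Most changes were modest, and members moved about as often up as down. The median log2 fold, as a difference of log2(RPKM + 1), was 0.03 for Het against WT, -0.01 for KO against WT and 0.02 for KO against Het, and over all genes of at least 0.5 RPKM it was 0.01, 0.00 and 0.00. The median size of the log2 fold, whatever its sign, was 0.26, 0.25 and 0.19 in members, against 0.13, 0.16 and 0.11 over all those genes. The added 1 shrinks the folds of low genes, and levels were not matched between members and all those genes. Requiring a log2 fold of at least 0.5 as well left 9 called members in Het against WT, 11 in KO against WT and 2 in KO against Het. In all, 34 members were called in at least 1 comparison and 32 in none. The share of all genes called in at least 1 comparison was not taken, nor was their share under the fold cut.

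**Figure D1:**
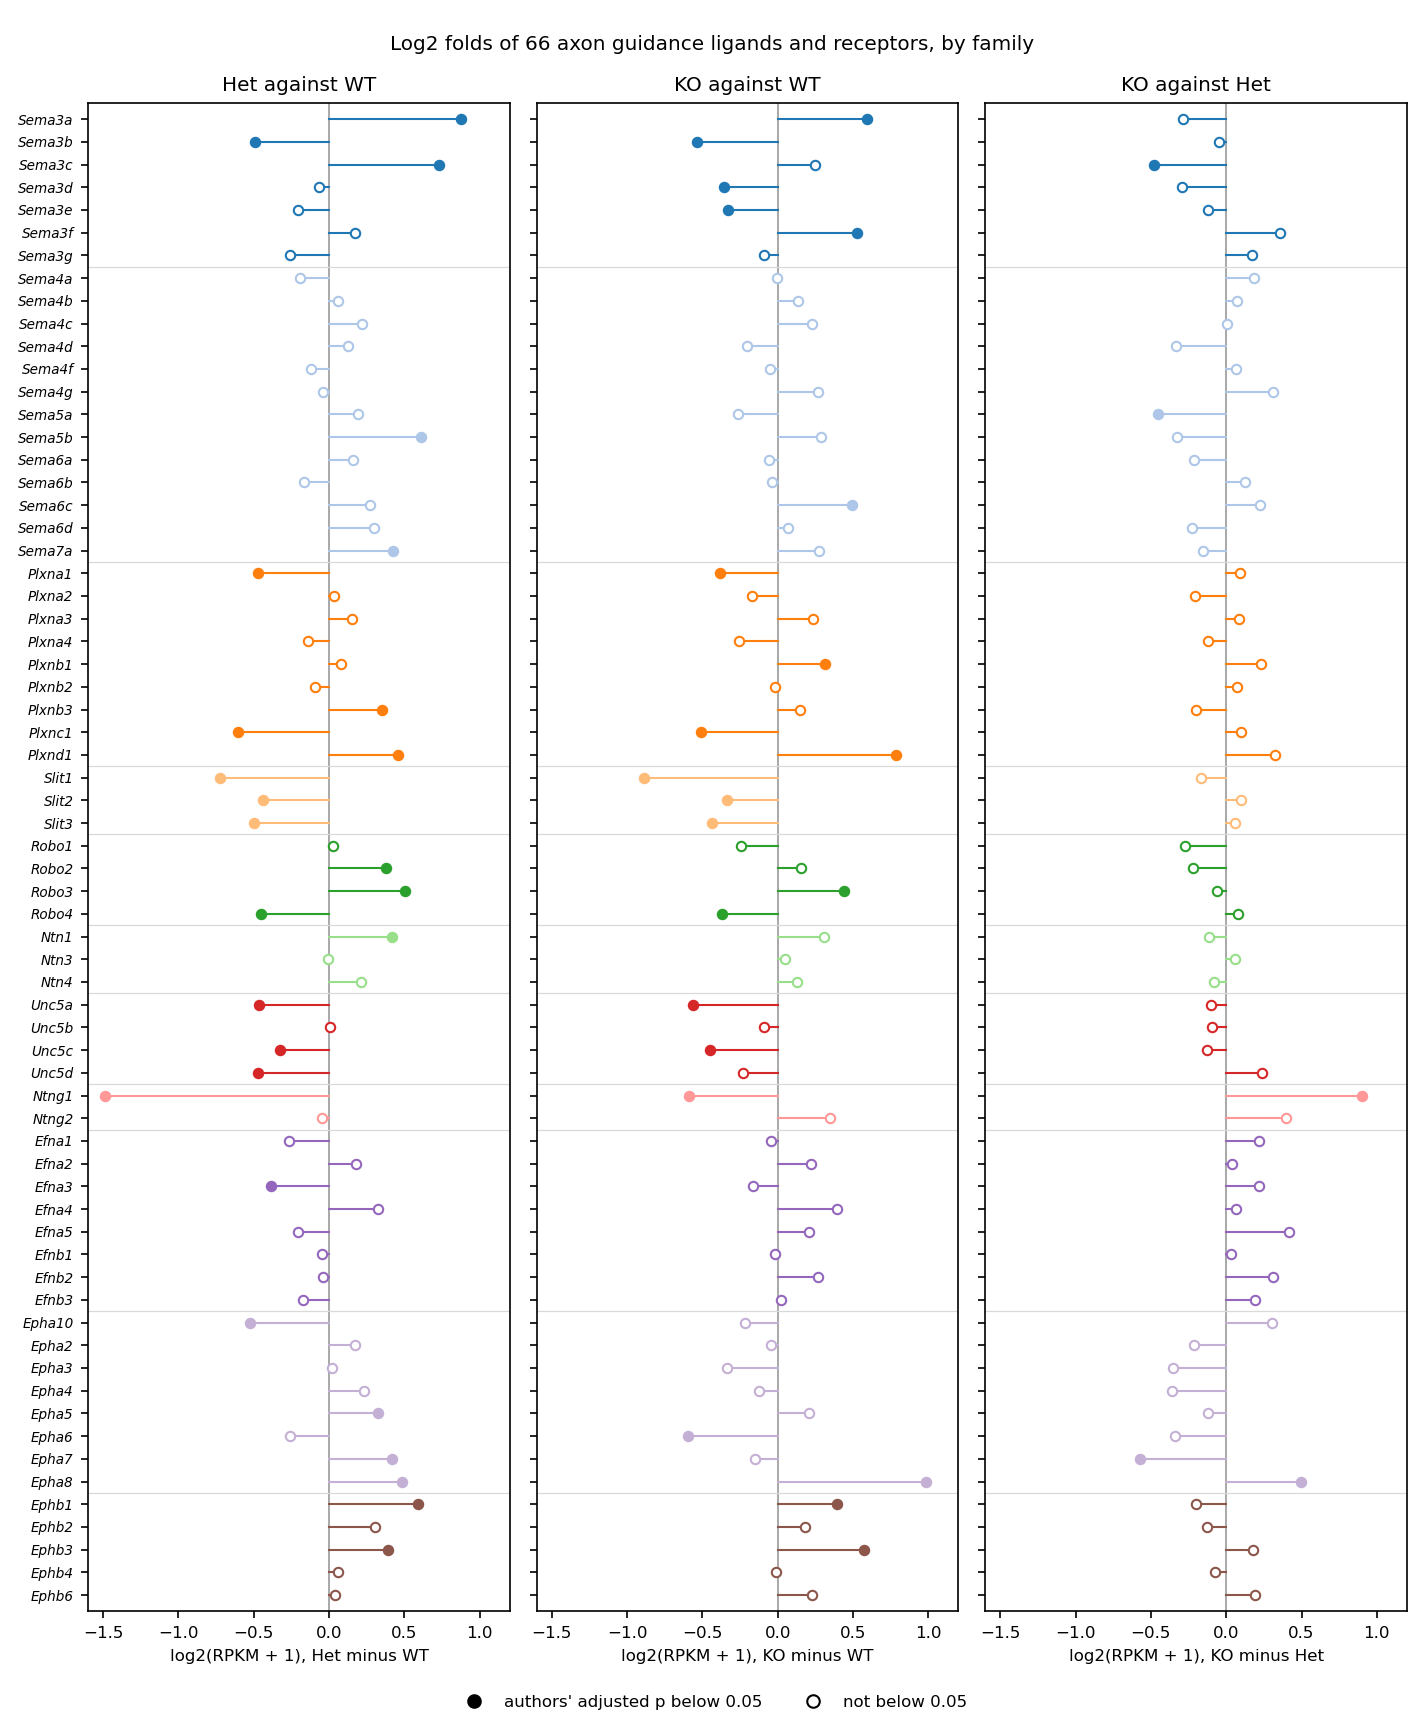
Log2 fold of each of the 66 members in the 3 comparisons, as the difference of log2(RPKM + 1) on the horizontal axis, with members grouped by family and coloured by it. Filled points have an adjusted p below 0.05 in the authors' deposited table. All 3 Slits lie left of 0 with filled points in Het against WT and in KO against WT, and Ntng1 has the lowest value of Het against WT, at -1.49.

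The class 3 semaphorins are secreted ligands, most of which signal through neuropilin and plexin-A receptor complexes. Sema3a, a repellent of cortical axons and an attractant of their apical dendrites, stood at 2.32 RPKM in Het and 0.810 RPKM in WT, 2.87-fold. In KO it stood at 1.73 RPKM, against 0.810 RPKM in WT, 2.14-fold. It was thus the lowest member in WT and rose in both mutants. Sema3c, which attracts callosal axons, was the most abundant of the class and stood at 46.7 RPKM in Het against 27.8 RPKM in WT. In KO it stood at 33.3 RPKM against 27.8 RPKM in WT (adjusted p 0.144 in the authors' deposited table). Compared directly, it stood at 33.5 RPKM in KO and 47.0 RPKM in Het and was called lower in KO (adjusted p 0.00879 in the authors' deposited table).

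Sema3b was lower in both mutants, at 0.836 RPKM in Het against 1.58 RPKM in WT (adjusted p 0.0176 in the authors' deposited table) and 0.778 RPKM in KO against 1.58 RPKM in WT (adjusted p 0.00179 in the authors' deposited table). Among 12 markers of choroid plexus and ependyma 8 fell in each mutant. The 12 summed to 363 RPKM in Het and 2239 RPKM in WT, and to 138 RPKM in KO and 2240 RPKM in WT. Most of the Het and WT sums was Ttr, at 281 RPKM in Het and 2027 RPKM in WT. The median log2 fold of the list was -1.56 in Het and -1.96 in KO. Kcnj13, Tmem212, Ccdc153 and Rarres2 were not called in Het. Meningeal fibroblast markers fell in 5 of 12 genes in Het and in 3 of 12 in KO, with sums of 99.1 RPKM in Het and 116 RPKM in KO, against 159 RPKM in WT. The part of these cells in the lower Sema3b was not tested. Other members of the class were called in KO alone of the mutants set against WT. Sema3f, which signals through neuropilin-2, rose to 2.44 RPKM in KO against 1.39 RPKM in WT (adjusted p 0.00446 in the authors' deposited table). Sema3d fell to 2.26 RPKM in KO against 3.18 RPKM in WT (adjusted p 0.0214 in the authors' deposited table). Sema3e, the ligand of plexin-D1, fell to 11.2 RPKM in KO against 14.3 RPKM in WT (adjusted p 0.0321 in the authors' deposited table). In Het they stood at 1.68, 2.99 and 12.3 RPKM, none of them called against WT or against KO, so a difference between the mutants is not shown for them. Sema3g, at 0.831 RPKM in Het, 1.06 RPKM in KO and 1.2 RPKM in WT, was not called.

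The semaphorins of classes 4 to 7 are held in the membrane, and 13 were members. Of these 2 rose in Het (Sema5b and Sema7a), 1 rose in KO (Sema6c) and none fell against WT. Sema7a, which carries a lipid anchor and promotes axon growth, was the most abundant at 53.5 RPKM in Het and 39.6 RPKM in WT. In KO it stood at 48.1 RPKM, against 39.6 RPKM in WT (adjusted p 0.1 (rounded) in the authors' deposited table). Sema5b rose to 11.0 RPKM in Het against 6.87 RPKM in WT, 1.60-fold, and stood at 8.62 RPKM in KO against 6.88 RPKM in WT (adjusted p 0.0929 in the authors' deposited table). Sema6c rose to 15.5 RPKM in KO against 10.7 RPKM in WT, and stood at 13.1 RPKM in Het against 10.7 RPKM in WT (adjusted p 0.162 in the authors' deposited table).

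Sema5a, a protein with thrombospondin repeats that can attract or repel, was called between the mutants, at 15.9 RPKM in KO and 22.1 RPKM in Het (adjusted p 0.0154 in the authors' deposited table). Against WT, at 19.1 RPKM, neither the KO value of 15.8 RPKM nor the Het value of 21.9 RPKM was called (adjusted p 0.104 and 0.329 in the authors' deposited tables). Among the members called in no comparison, Sema4d, the ligand of plexin-B1, stood at 12.2 RPKM in KO, 15.6 RPKM in Het and 14.2 RPKM in WT. Sema4a, Sema4b, Sema4c, Sema4f, Sema4g, Sema6a, Sema6b and Sema6d were likewise not called and had log2 folds between -0.23 and 0.31 in the 3 comparisons.

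Plexins are the semaphorin receptors, single-pass proteins whose inner part acts on Ras-family GTPases. Of 9 plexins 2 rose and 2 fell in Het, and 2 rose and 2 fell in KO. Plxnd1, the receptor of Sema3e, rose to 14.3 RPKM in Het against 10.1 RPKM in WT, and to 18.1 RPKM in KO against 10.1 RPKM in WT, 1.41-fold and 1.79-fold. Plxnc1, the receptor of Sema7a, fell to 6.97 RPKM in Het against 11.1 RPKM in WT and to 7.52 RPKM in KO against 11.1 RPKM in WT. Plxna1, the most abundant plexin in WT, fell to 24.8 RPKM in Het against 34.8 RPKM in WT, and to 26.5 RPKM in KO against 34.8 RPKM in WT (adjusted p 0.0150 in the authors' deposited table for KO). Set beside their ligands, Plxnd1 was higher and Sema3e lower in KO, and Plxnc1 was lower and Sema7a higher in Het. Sema3e was not called in Het against WT, nor Sema7a in KO against WT. For Plxnb1 with Sema4d, and for Plxnb3 with Sema5a, in no comparison were both genes called.

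Plxnb3, a plexin of oligodendrocytes and a receptor of Sema5a, rose to 4.61 RPKM in Het against 3.40 RPKM in WT (adjusted p 0.0392 in the authors' deposited table). It stood at 3.89 RPKM in KO against 3.40 RPKM in WT (adjusted p 0.441 in the authors' deposited table). Oligodendrocyte markers summed to 1588 RPKM in Het and 1161 RPKM in WT, with 2 of 10 higher, and to 918 RPKM in KO and 1162 RPKM in WT, with 3 of 10 lower, and their part in the Plxnb3 values was not tested. Plxnb1 rose to 15.4 RPKM in KO against 12.2 RPKM in WT (adjusted p 0.0441 in the authors' deposited table), a call lost when the authors' p-values were adjusted over the 3 tables together (0.0666). Plxna2, Plxna3, Plxna4 and Plxnb2 were called in no comparison and had log2 folds between -0.26 and 0.23. The neuropilins, which are no members but hold the class 3 ligands, stood close together: Nrp1 at 24.8 RPKM in Het, 25.7 RPKM in KO and 23.8 RPKM in WT, and Nrp2 at 19.8 RPKM in Het, 19.1 RPKM in KO and 20.3 RPKM in WT, with no call.

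The Slits, secreted repellents that keep axons from crossing the midline and channel callosal and corticofugal fibres, all fell in both mutants. Slit1, the most abundant, fell to 17.1 RPKM in Het against 28.8 RPKM in WT, and to 15.1 RPKM in KO against 28.8 RPKM in WT. Slit2 stood at 5.64 RPKM in Het against 8.0 RPKM in WT, and at 6.11 RPKM in KO against 8.0 RPKM in WT (adjusted p 0.0287 in the authors' deposited table for KO). Slit3 stood at 9.29 RPKM in Het against 13.5 RPKM in WT, and at 9.74 RPKM in KO against 13.5 RPKM in WT (adjusted p 0.00386 in the authors' deposited table for KO). Together the Slits summed to 32.0 RPKM in Het against 50.3 RPKM in WT, and to 31.0 RPKM in KO against 50.4 RPKM in WT. No Slit was called between KO and Het, where the log2 folds lay between -0.17 and 0.10, and none holds a miR-137 match in its longest 3' UTR.

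The Robo receptors, immunoglobulin-family proteins of which Robo1 and Robo2 read Slits, were split. Robo3, a divergent member that allows commissural axons to reach the midline, rose to 7.28 RPKM in Het against 4.85 RPKM in WT and to 6.95 RPKM in KO against 4.85 RPKM in WT (adjusted p 0.0056 in the authors' deposited table for KO). Robo2 rose to 24.8 RPKM in Het against 18.9 RPKM in WT (adjusted p 0.01 (rounded) in the authors' deposited table). In KO Robo2 stood at 21.2 RPKM against 18.9 RPKM in WT (adjusted p 0.406 in the authors' deposited table). Robo1 was called nowhere, at 20.05 RPKM in Het, 16.5 RPKM in KO and 19.6 RPKM in WT. Robo4, the Robo of endothelial cells, fell to 3.40 RPKM in Het against 5.01 RPKM in WT (adjusted p 0.0141 in the authors' deposited table), and to 3.65 RPKM in KO against 5.01 RPKM in WT (adjusted p 0.0379 in the authors' deposited table). With adjustment over the 3 tables together the KO call of Robo4 was lost (0.0577). Endothelial markers fell in 4 of 10 genes and rose in 1 in Het, and fell in 3 of 10 and rose in 1 in KO, with sums of 130 RPKM in Het and 138 RPKM in KO against 162 RPKM in WT, and their part in the Robo4 values was not tested.

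Slit2 and Slit3 also carry the 2 genes of another microRNA, miR-218, within their spans: Mir218-1 lies at chr5:48223942-48224051 and Mir218-2 at chr11:35616816-35616925 on GRCm38.p6. Both give the same mature sequence, shown with its seed in capitals beside the 8mers that the 3' UTRs of Robo1 and Robo2 hold for it.
miR-218-5p: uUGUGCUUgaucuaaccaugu
Robo1: tttttttggttttaaAAGCACAA
Robo2: attttatttggtgatAAGCACAA
The Robo1 place is chr16:73045333-73045355 on the plus strand and that of Robo2 is chr16:73895358-73895380 on the minus strand of GRCm38. The searched words were AAGCACAA (8mer), AAGCACA (7mer-m8) and AGCACAA (7mer-A1), on the transcribed strand, each place counted once. Any match was present in the longest 3' UTR of 24 of the 66 members, or 36.4%, against 21.5% of 13341 genes of at least 0.5 RPKM, whose 3' UTRs are shorter. The 8mer was present in 9 members, or 13.6%, against 4.62% of those genes. With the shortest annotated 3' UTR the 8mer was present in 5 members, or 7.58%, against 2.57%. Both microRNA genes were listed at 0 RPKM in these tables, which do not measure a mature microRNA.

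Netrin-1 attracts axons through Dcc and repels them where Unc5 receptors are present. Ntn1 rose to 3.28 RPKM in Het against 2.2 RPKM in WT (adjusted p 0.0148 in the authors' deposited table). In KO it stood at 2.97 RPKM against 2.2 RPKM in WT (adjusted p 0.0536 in the authors' deposited table). Ntn3 and Ntn4 were not called, with log2 folds between -0.08 and 0.21 in the 3 comparisons. The receptor of attraction, Dcc, which is no member, stood at 9.20 RPKM in Het, 9.05 RPKM in KO and 8.82 RPKM in WT, with no call.

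Of the 4 Unc5 receptors of repulsion 3 fell in Het and 2 fell in KO. Unc5a, the most abundant, fell to 22.3 RPKM in Het against 31.1 RPKM in WT and to 20.7 RPKM in KO against 31.2 RPKM in WT. Unc5c fell to 5.73 RPKM in Het against 7.43 RPKM in WT (adjusted p 0.0282 in the authors' deposited table) and to 5.18 RPKM in KO against 7.43 RPKM in WT (adjusted p 0.00179 in the authors' deposited table). Unc5d fell to 2.83 RPKM in Het against 4.30 RPKM in WT, and stood at 3.52 RPKM in KO against 4.30 RPKM in WT (adjusted p 0.169 in the authors' deposited table). Unc5b, the member best known from blood vessels, stood at 2.48 RPKM in Het, 2.25 RPKM in KO and 2.46 RPKM in WT, and was not called. The family summed to 33.4 RPKM in Het against 45.3 RPKM in WT, and to 31.7 RPKM in KO against 45.3 RPKM in WT.

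**Figure D2:**
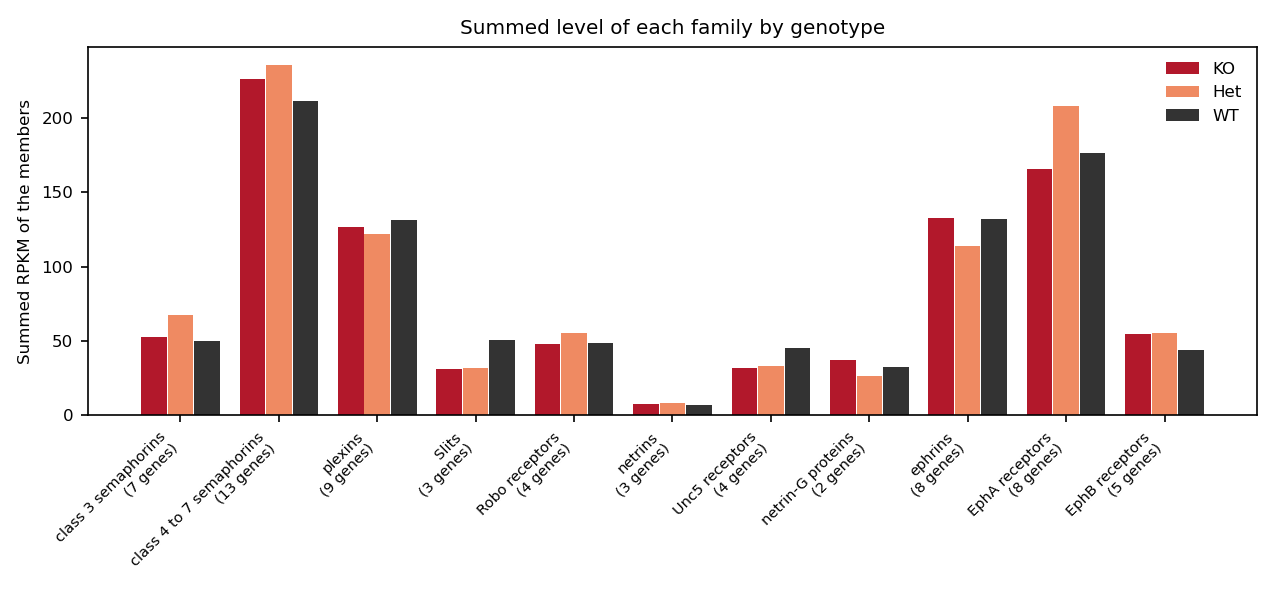
Summed RPKM of the members of each family (vertical axis, from 0) in KO, Het and WT, each bar being the sum of the authors' pooled values with no error. Slits and Unc5 receptors are lower in both mutants than in WT, while EphA receptors are highest in Het, at 208 RPKM against 176 RPKM in WT.

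Netrin-G proteins are lipid-anchored relatives of netrins that bind synaptic partners, netrin-G1 the protein of Lrrc4c and netrin-G2 that of Lrrc4. Ntng1, abundant in thalamic neurons that project to cortex, was called in every comparison. It stood at 2.02 RPKM in Het against 7.46 RPKM in WT, 3.70-fold lower, and at 4.63 RPKM in KO against 7.46 RPKM in WT, 1.61-fold lower. The direct comparison gave 4.67 RPKM in KO and 2.03 RPKM in Het, 2.30-fold higher in KO, so the order was Het, KO and WT from low to high. Thalamic markers other than Ntng1 fell in 4 of 9 genes in Het and in 4 of 9 in KO, with sums of 117 RPKM in Het and 120 RPKM in KO against 151 RPKM in WT. The largest part of the Het and WT sums was Calb2, at 65.3 RPKM in Het against 90.7 RPKM in WT. The 4 markers that fell in Het ran from 1.39-fold lower (Slc17a6) to 3.83-fold lower (Tcf7l2), and none rose. Between KO and Het the marker sums were 120.5 RPKM in KO and 118 RPKM in Het, with 1 of 9 higher and 1 lower in KO. The part of thalamic RNA in the Ntng1 values was not tested. Ntng2 was not called, at 32.3 RPKM in KO against 25.2 RPKM in WT, and at 32.5 RPKM in KO against 24.5 RPKM in Het (adjusted p 0.137 and 0.389 in the authors' deposited tables). The partners Lrrc4c and Lrrc4 were not called in any comparison.

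Ephrins are the membrane-bound ligands of Eph receptors. Of 8 ephrins 1 fell in Het, none was called in KO against WT and none between KO and Het. Efna3, whose 3' UTR holds an 8mer for miR-137, fell to 30.8 RPKM in Het against 40.5 RPKM in WT (adjusted p 0.0293 in the authors' deposited table) and stood at 36.0 RPKM in KO against 40.5 RPKM in WT (adjusted p 0.454 in the authors' deposited table). Efna5, which sets topographic maps, stood at 2.10 RPKM in KO and 1.33 RPKM in Het (adjusted p 0.0658 in the authors' deposited table), and was called higher in KO with adjustment over the 3 tables together (0.023). Efna4 stood at 1.43 RPKM in Het, 1.54 RPKM in KO and 0.941 RPKM in WT with no call. Efnb3, the most abundant ephrin and a midline barrier to corticospinal axons, stood at 62.5 RPKM in Het, 71.8 RPKM in KO and 70.8 RPKM in WT. Efna1, Efna2, Efnb1 and Efnb2 were also not called, with log2 folds between -0.26 and 0.31.

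EphA receptors are tyrosine kinases that mostly read ephrin-A ligands, and 8 were members. In Het 3 rose and 1 fell, and in KO 1 rose and 1 fell against WT. Epha8 rose in both, to 4.59 RPKM in Het against 2.99 RPKM in WT (adjusted p 0.00434 in the authors' deposited table) and to 6.91 RPKM in KO against 2.99 RPKM in WT. It was also higher in KO, at 6.93 RPKM, than in Het, at 4.62 RPKM, so its level ran KO, Het and WT from high to low with each step called.

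Epha7, which holds the 3 miR-137 matches shown above, did not follow that order. It rose to 49.7 RPKM in Het against 36.9 RPKM in WT (adjusted p 0.00602 in the authors' deposited table). In KO it stood at 33.1 RPKM against 36.9 RPKM in WT (adjusted p 0.482 in the authors' deposited table), and it was lower in KO, at 33.3 RPKM, than in Het, at 50.0 RPKM. The rise against WT was called in Het alone, and the difference between KO and Het was itself called.

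Epha4, a receptor for both ephrin classes that guides corticospinal axons, was the most abundant of all members and was not called, at 100 RPKM in Het, 78.0 RPKM in KO and 85.2 RPKM in WT. Its adjusted p between KO, at 78.3 RPKM, and Het, at 101 RPKM, was 0.202 in the authors' deposited table. Epha5 rose to 31.7 RPKM in Het against 25.1 RPKM in WT (adjusted p 0.0319 in the authors' deposited table) and stood at 29.1 RPKM in KO against 25.1 RPKM in WT (adjusted p 0.242 in the authors' deposited table). Epha6 fell to 9.75 RPKM in KO against 15.3 RPKM in WT, and stood at 12.6 RPKM in Het against 15.2 RPKM in WT (adjusted p 0.346 in the authors' deposited table). Epha10, which lacks kinase activity, fell to 3.14 RPKM in Het against 4.97 RPKM in WT (adjusted p 0.00244 in the authors' deposited table) and stood at 4.13 RPKM in KO against 4.98 RPKM in WT (adjusted p 0.254 in the authors' deposited table). Epha3, at 3.68 RPKM in KO against 4.90 RPKM in WT (adjusted p 0.0656 in the authors' deposited table), and Epha2, at about 1 RPKM in each genotype, were not called.

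EphB receptors read the ephrin-B ligands and act on axons and on dendritic spines. Of 5 members 2 rose in Het and 2 in KO, and none fell. Ephb1 rose to 18.5 RPKM in Het against 12 RPKM in WT, and to 16.1 RPKM in KO against 12 RPKM in WT (adjusted p 0.0126 in the authors' deposited table for KO). Ephb3 rose to 5.71 RPKM in Het against 4.12 RPKM in WT (adjusted p 0.0298 in the authors' deposited table) and to 6.62 RPKM in KO against 4.13 RPKM in WT. Ephb2 stood at 15.3 RPKM in Het, 14.0 RPKM in KO and 12.2 RPKM in WT, without a call (adjusted p 0.0675 for Het in the authors' deposited table). Ephb4, known from veins, and Ephb6, which lacks kinase activity, were called nowhere and had log2 folds between -0.08 and 0.23. The family summed to 55.4 RPKM in Het and 54.6 RPKM in KO, against 43.7 RPKM in WT.

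**Figure D3:**
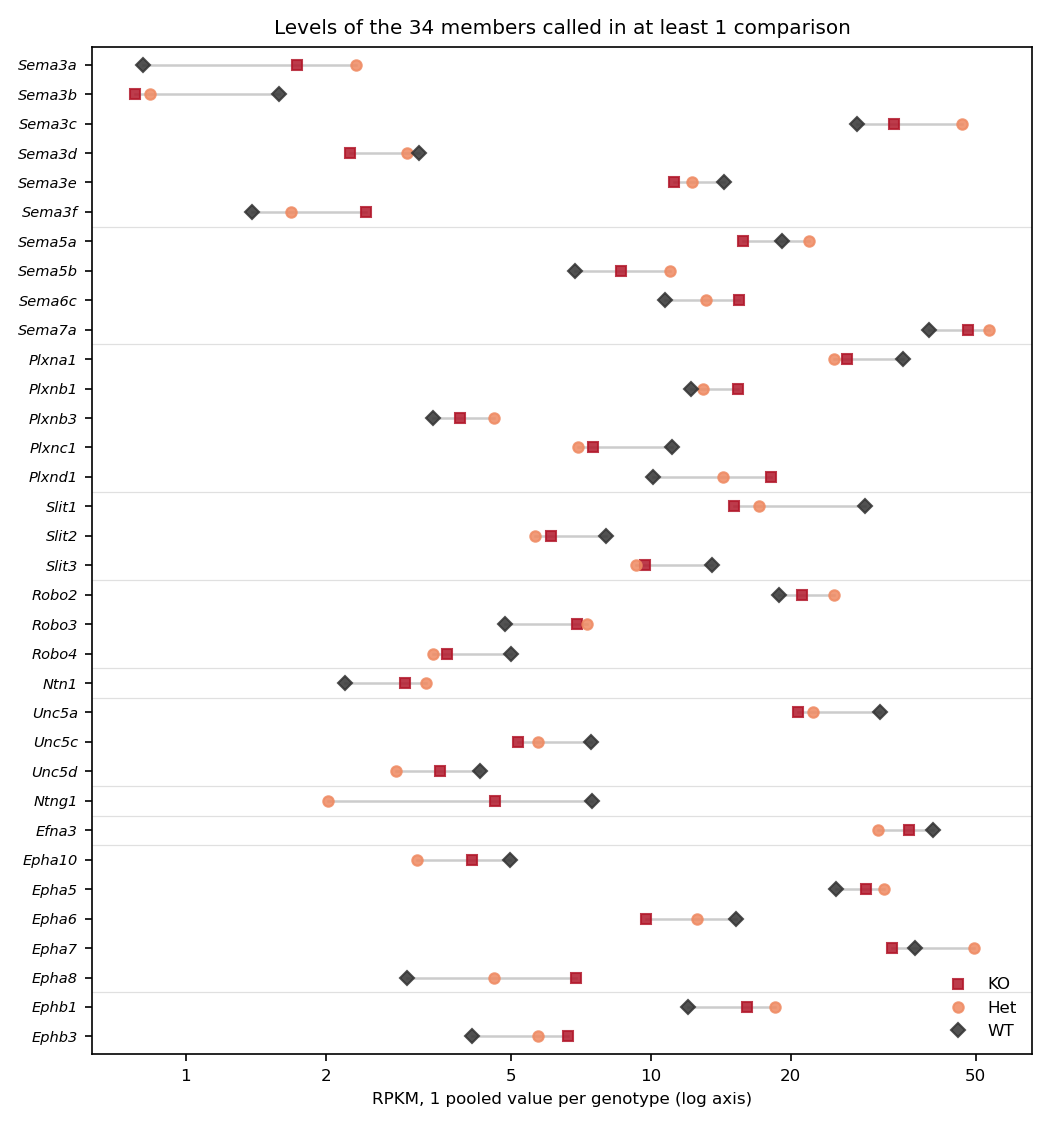
RPKM of the 34 members called in at least 1 comparison, on a log axis, with 1 pooled value each for KO, Het and WT and a grey line from the lowest to the highest. The Slits, Unc5 receptors, Plxna1 and Plxnc1 have their WT value on the right, while Sema3a, Plxnd1, Robo3, Epha8 and both EphB receptors have it on the left.

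By role, 34 members were ligands and 30 receptors, with the netrin-G proteins counted as neither. In Het 5 ligands rose and 5 fell, and 9 receptors rose and 7 fell. In KO 3 ligands rose and 6 fell against WT, and 6 receptors rose and 6 fell. Summed levels of ligands were 458 RPKM in Het and 450 RPKM in KO against 451 RPKM in WT, and those of receptors 474 RPKM in Het and 427 RPKM in KO against 445 RPKM in WT.

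Members with and without a miR-137 match did not move one way. In Het 6 of the 20 members with a match rose and 4 fell, and 8 of the 46 without rose and 9 fell. Over all genes of at least 0.5 RPKM 95 of 2106 with a match rose in Het and 110 fell, and 431 of 11235 without rose and 568 fell. In KO 3 of the 20 rose and 5 fell against WT, and 6 of the 46 rose and 8 fell. Over all those genes 149 of 2106 with a match rose in KO and 164 fell, and 733 of 11235 without rose and 846 fell. The median log2 fold of members with a match was 0.16 in Het and -0.14 in KO, against 0.00 and 0.01 for those without; over all genes of at least 0.5 RPKM with a match it was 0.00 in Het and -0.01 in KO. Of the 5 members called between KO and Het, Epha7, Epha8, Ntng1 and Sema5a hold a match and Sema3c does not. Of the 20 with a match 2 were higher and 2 lower in KO, and of the 46 without 1 was lower. Over all genes of at least 0.5 RPKM 2.18% with a match and 1.75% without were called between KO and Het. Using the shortest annotated 3' UTR, 2 of 10 members with a match were higher and 1 lower, and 2 of 56 without were lower. The part of miR-137 in these calls was not tested.

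The co-receptors and effectors around these families were read from lists of other guidance genes. Of 34 co-receptors and cofactors 3 rose and 1 fell in Het, and 6 rose and none fell in KO. These are 11.8% called in Het and 17.6% in KO, near the 9.00% and 14.4% of all genes tested. In the authors' deposited table the netrin antagonist Draxin stood at 4.70 RPKM in Het against 2.75 RPKM in WT, and at 3.94 RPKM in KO against 2.76 RPKM in WT (adjusted p 0.0117 for KO). Islr2, an axonal immunoglobulin protein, rose to 99.4 RPKM in Het against 71.0 RPKM in WT. Met, the receptor of hepatocyte growth factor, fell to 1.29 RPKM in Het against 2.47 RPKM in WT and rose to 3.33 RPKM in KO against 2.47 RPKM in WT (adjusted p 0.0443 in the authors' deposited table for KO, and 0.067 over the 3 tables together, where the call is lost). It was the single gene of these lists of guidance partners that the authors' deposited table called between KO and Het, at 3.35 RPKM in KO and 1.30 RPKM in Het. Rgma, a ligand of neogenin, rose to 25.5 RPKM in KO against 17.2 RPKM in WT, and Cntn2, an axonal adhesion protein, to 10.1 RPKM in KO against 7.05 RPKM in WT.

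Of 55 intracellular effectors 3 rose and 3 fell in Het, and 10 rose and 6 fell in KO. The share called was 10.9% in Het, near the 9.00% of all genes tested, and 29.1% in KO, where 14.4% of all genes tested were called. Ngef, the exchange factor ephexin, which acts downstream of EphA receptors, rose to 54.3 RPKM in Het against 27.2 RPKM in WT and to 61.2 RPKM in KO against 27.2 RPKM in WT. Among collapsin response mediators, which carry semaphorin signals to microtubules, Dpysl3 and Dpysl5 rose to 194 and 80.1 RPKM in KO, against 118 and 52.2 RPKM in WT. Mical1, an oxidase of the plexin pathway, rose to 7.43 RPKM in KO against 4.43 RPKM in WT. The more abundant Mical2 fell to 90.7 RPKM in Het against 115 RPKM in WT (adjusted p 0.0371 in the authors' deposited table). In KO Mical2 fell to 83.2 RPKM against 115 RPKM in WT (adjusted p 0.00254 in the authors' deposited table). Arhgap39, a regulator in the Robo pathway, fell to 22.0 RPKM in KO against 30.6 RPKM in WT. The effector lists hold genes that earlier results on these data had shown to change, such as Dpysl3, and their counts are no independent evidence of direction.

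Markers of other cells moved with the genotypes as well. Cortical excitatory markers were present throughout, among them Slc17a7 at 484 RPKM in Het, 393.5 RPKM in KO and 575 RPKM in WT, and of 10 such markers 2 rose and 1 fell in Het and 1 rose and 1 fell in KO. Of 8 interneuron markers 1 rose and 1 fell in Het and 1 fell in KO, of 8 astrocyte markers 1 rose and 1 fell in Het and none was called in KO, and of 8 microglia markers 3 rose and 2 fell in each. Oligodendrocyte precursor markers rose in 3 of 9 genes in each mutant. Striatal projection neuron markers rose in 20 of 20 genes in both mutants, with sums of 708 RPKM in Het against 159 RPKM in WT and 754 RPKM in KO against 159 RPKM in WT. Immature neuron markers rose in 7 of 10 genes in Het and in 8 of 10 in KO, with sums of 2354 RPKM in Het against 1752 RPKM in WT and 2885 RPKM in KO against 1752 RPKM in WT. No marker of the lists was at 0 in both genotypes of a comparison. Many guidance genes are used by striatal and immature neurons too, and the part of these cells in the members' values was not tested. Between KO and Het no striatal marker was called, with sums of 755 RPKM in KO and 712 RPKM in Het, and 8 of 10 oligodendrocyte markers were lower in KO. The members have long transcripts, with a median of 4874 nt against 3194 nt over 13379 genes, and 60 of the 66 lie above the latter. The 10% of those genes with the longest transcripts had a median log2 fold of -0.10 in Het and -0.09 in KO against WT, and the 10% with the shortest 0.14 in Het and 0.18 in KO. The share called among genes of like length was not taken.

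**Figure D4:**
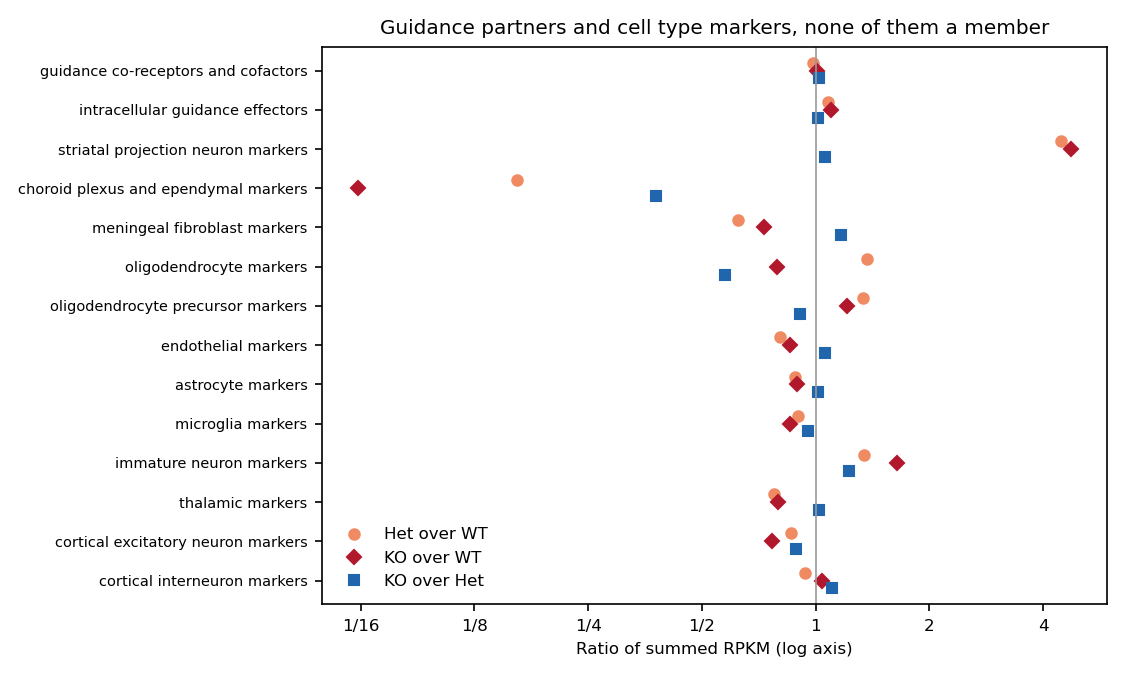
Ratio of summed RPKM (log axis) for 14 lists of guidance partners and cell type markers, none of them a member, in Het over WT, KO over WT and KO over Het. Striatal markers lie at 4.46 for Het over WT and 4.75 for KO over WT, choroid plexus and ependymal markers at 0.162 and 0.0614, and both guidance lists close to 1.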

How the data were processed

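Titles gave each library its genotype. The labels' protocols describe Illumina TruSeq v2 libraries read as 50-cycle paired ends; this kit keeps no strand. Tools listed in the submitters' processing notes are Cuffdiff 2.2.1, TopHat2 2.0.13 and CASAVA 1.4, beside build mm9, with no role for each, and the annotation is not given in the sources used here. The authors deposited 3 pairwise tables, whose headers name RPKM for both genotypes. A p-value and a q-value of the authors stand beside them in the deposited tables. Adjusting the p-values below 1 by Benjamini and Hochberg gave the deposited q-values within a relative tolerance of 0.001, here read as the genes tested, and the smallest p is 5e-05. The same genotype's RPKM differed between tables by at most 0.694% over members, so each value was read in its own table.

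No test was run on pooled values. The pseudocount of 1 in log2(RPKM + 1) makes folds of low genes look smaller. Every member called is given with its values, as are the members never called with the largest folds. From each partner list up to 6 called genes per comparison by smallest q could be named. Alcam and Ncam1, also called, were left out. Nrp1, Nrp2, Dcc, Lrrc4 and Lrrc4c were added as binding partners. The members, lists and settings were chosen with earlier results of these data known. 3' UTRs came from GENCODE M21 (GRCm38) by gene name, found for 66 of 66 members, and no coordinates of mm9 are used. Python 3.11.15, pandas 2.3.3, numpy 2.4.6 and matplotlib 3.10.9 were used. The code for folds, thresholds and adjustment was run on simulated data, which does not test the authors' own calls.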

Additional observations from a re-analysis of the deposited data

How the results depend on the processing

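Counts of called members stayed within 1.5 times with a q threshold of 0.01, adjustment over the 3 tables together, and members of at least 1, at least 5 or any RPKM. With a log2 fold of at least 0.5 as well, 9 members were called in Het against WT, 11 in KO against WT and 2 in KO against Het, against 27, 22 and 5 without it, since fewer could pass. The share of all genes under that cut was not taken. Adjusted over the 3 tables together, 27, 20 and 6 were called. Plxnb1 and Robo4 then lost their calls in KO against WT, and Efna5 gained one in KO against Het. Of the partner lists, Srgap3 lost its call in Het against WT and Abl2, Dpysl4 and Met theirs in KO against WT, while Chn1 and Farp1 gained calls in KO against Het. The shortest annotated 3' UTR gave 10 members with a miR-137 match, against 20 with the longest, since it holds fewer bases. The median log2 folds kept their sign in all alternatives, and no called member's fold changed sign with a pseudocount of 0.1 or 0.01 or when recentred on all genes. No paired analysis was possible because the tables hold 1 pooled value per genotype and none per library; for the same reason no library could be left out. Depth is unknown, so how small a change could be called for low members such as Sema3a and Sema3b cannot be stated.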
